A study of Hordeum vulgare with 64 samples.

Results

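Barley (Hordeum vulgare) leaves carry a group of abundant transcripts that roots hardly hold, and 136 such genes were followed through salt stress and waterlogging. They are the genes with HORVU identifiers at 20 FPKM or more in all 8 control leaf libraries and under 1 FPKM in all 8 control root libraries. FPKM counts the fragments of a gene per kilobase of exon, scaled to the library's mapped fragments. The rule took 136 of 39734 HORVU genes, in tables of 43050 rows, and its upper limit of 200 genes was not reached. A further 1782 HORVU genes passed the leaf limit and not the root limit, and they serve below as the other abundant leaf genes. The control levels that chose the 136 genes are given as a description. Comparisons of stressed leaves with control also rest on those libraries. Comparisons between later times take no group mean from them, but the control leaves entered the estimate of spread behind their p-values.

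Green leaves devote much of their messenger RNA to proteins of the chloroplast. The nuclear genes for light-harvesting proteins, for carbon fixation and for chlorophyll synthesis are known to be read strongly in leaves and weakly in roots, and their transcripts are known to decline in ageing or stressed leaves. Transcripts of leaf epidermis and of leaf defence can be restricted in the same way. None of these roles can be given to single genes here, since the expression tables do not pair the identifiers with names, and a search of RefSeq's barley genes matched 0 of them. Genes are therefore given by identifier, for 4 of them, or by rank in mean control leaf FPKM.

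The libraries came from 2 varieties, NasoNijo (NN, sensitive to salt and waterlogging) and TX9425 (TX, tolerant of both), grown side by side in one pot in a greenhouse and stressed as seedlings with 3 leaves. Salted plants had NaCl and were sampled at 1 h, at 24 h and at 10 d. Waterlogged plants stood in water that covered the soil and were sampled at 1 h, at 72 h and at 2 w. Each experiment had its own unstressed control leaves and roots, labelled CON, for both varieties. With 2 libraries per group this gave 16 leaf and 16 root libraries per experiment. The methods state 3 biological replicates, and 2 were used here, so p-values measure the spread between those libraries, which may be technical. No unstressed plants were labelled 10 d or 2 w, so the late stress effect cannot be told apart from plant age. Nor can the early effect be told apart from the time of sampling. In whole leaves, fewer green cells and less RNA per cell cannot be told apart either.

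The libraries followed their tissue labels. In the 24 stressed leaf libraries the 136 genes summed to 6530 to 41511 FPKM, and each library read 134 to 136 of them at or above 1 FPKM. In the 24 stressed root libraries the same sum was 16.4 to 38.3 FPKM. The 15 genes chosen by the mirrored rule, abundant in control roots and under 1 FPKM in control leaves, summed to 0.291 to 16.4 FPKM in stressed leaves and 635 to 2422 FPKM in stressed roots. Relative depth, read from the size of 1 read among low values, was 0.458 to 1.03 of that of a reference library in salt leaves and 0.201 to 1.02 in waterlogging leaves. Rows with ENSRNA identifiers took 0.134% to 0.469% of FPKM in salt leaves and 0.610% to 36.1% in waterlogging leaves. They exceeded 10% in both NN libraries of 72 h, in replicate 2 of NN at 2 w, in replicate 1 of TX at 1 h and in replicate 2 of TX at 72 h. Among salt leaves, 32 HORVU genes were at 2 FPKM or more in every TX library and under 0.1 FPKM in every NN library but replicate 1 of 1 h, and that library read 18 of them at 0.5 FPKM or more. It and the ENSRNA-rich libraries are called the libraries in doubt.

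Among the 136 genes, mean control leaf levels ran from 33.7 to 1010 FPKM with a median of 114 FPKM. There were 12 genes at 500 FPKM or more and 75 at 100 FPKM or more, and the 10 most abundant held 31.0% of the FPKM of the group. The gene nearest the leaf limit had a lowest control value of 20.4 FPKM, and the nearest gene left out had 19.7 FPKM. The gene nearest the root limit reached 0.962 FPKM in a control root, and the nearest gene left out reached 1.01 FPKM. One member was at 0 FPKM in all control roots. Their identifiers place 24 genes each on chromosomes 5H and 6H, 23 on 2H, 17 each on 4H and 7H, 16 on 3H, 11 on 1H and 4 on no chromosome. Chromosome 6H holds 17.6% of the group and 11.4% of all HORVU genes. There are 7 pairs of members whose identifier numbers lie within 100 of each other, and reads of such neighbours may be shared if they are near-identical copies.

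Taken as a share of all HORVU FPKM in a library, the group lost most of its weight by 10 d of salt in both varieties. In NN it held 8.56% and 7.25% in the control leaves, 8.94% and 9.60% at 1 h, 6.93% and 7.90% at 24 h, and 2.35% and 1.69% at 10 d. In TX it held 6.65% and 4.95% in the control leaves, 8.17% and 8.53% at 1 h, 6.99% and 8.14% at 24 h, and 2.83% and 2.38% at 10 d. Both varieties thus had their 10 d libraries below all their other salt leaf libraries, and the 1 h and 24 h libraries of TX lay above both TX controls. Under waterlogging only the 2 w leaves of NN stood below the other leaves of their variety, with 2.77% and 2.91%. Their controls held 6.04% and 5.13%, the 72 h leaves 6.71% and 5.89%, and the 1 h leaves 4.64% and 9.93%. The TX libraries at 2 w lay apart from each other, at 6.89% and 3.43%, against 7.73% and 5.55% in control, 6.46% and 6.09% at 1 h, and 5.90% and 7.10% at 72 h. The HORVU row with the highest FPKM weighed on some of these shares. It held 16.5% of HORVU FPKM in replicate 2 of NN at 2 w and 13.2% in replicate 1 of NN at 72 h. In replicate 2 of TX at 72 h it held 9.44%. Without that row the group held 3.48%, 7.73% and 7.84% in these libraries, in that order. The 2 w leaves of NN, then at 2.78% and 3.48%, still lay below the other NN leaves, of which the lowest held 4.67%.

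**Figure D1:**
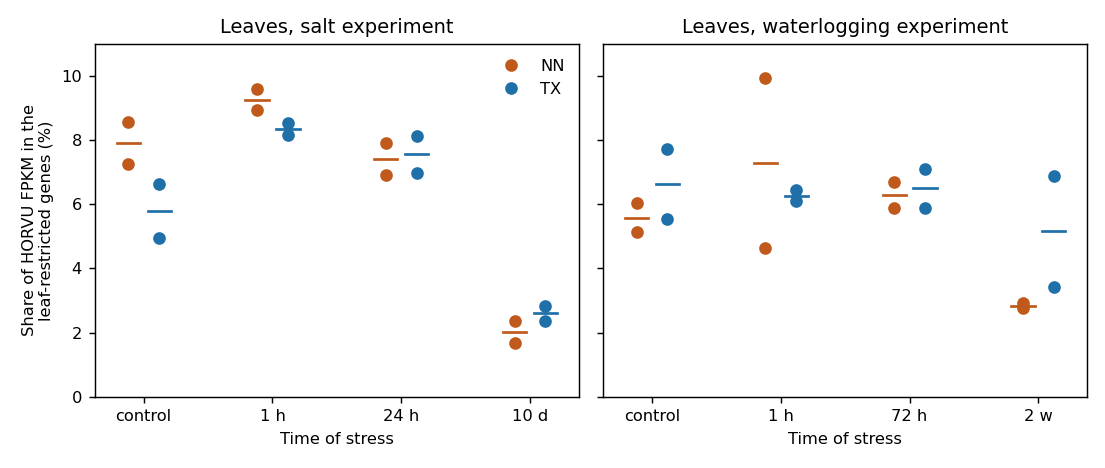
Share of the 136 leaf-restricted genes in all HORVU FPKM (vertical axis, percent, from 0) by time of stress in salt (left) and waterlogging (right); each point is 1 leaf library, bars are means of 2, NN is orange and TX blue. The salt points at 10 d lie between 1.69% and 2.83%, below every earlier point, and the NN points at 2 w of waterlogging lie at 2.77% and 2.91%. Replicate 2 of NN at 2 w would lie at 3.48% without the HORVU row with the highest FPKM.

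After 10 d of salt most of the leaf-restricted genes had fallen in NN, and in TX 55.1% of them were called. Of the 136 genes, 105 were lower and 3 higher than control in NN, and 73 were lower and 2 higher in TX (limma on log2(FPKM + 1), called where the adjusted p was under 0.05 and the change exceeded 1 on the log2 scale). Among all 19782 rows tested, 12.5% were called lower and 15.3% higher in NN, and 7.83% lower and 8.15% higher in TX. The group's median change was -2.10 for NN and -1.18 for TX on the log2 scale, against 0.01 and -0.08 over all rows. Other abundant leaf genes did not share this course, with medians of 0.12 and -0.02 and with 17.0% and 10.3% called lower. Both 10 d libraries lay below both controls for 124 genes in NN and 114 in TX, as they did for 37.1% and 36% of all rows. The controls in this comparison also chose the genes, which were held to 20 FPKM there and not in stressed leaves. Without replicate 2 of TX at 10 d the TX count was 42 lower and 2 higher.

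The fall lay between 24 h and 10 d. Between these times 101 were lower in NN and 83 in TX, and none was called higher. The libraries compared had no part in choosing the genes, though the controls entered the estimate of spread. Over all rows, 10.2% were lower and 16.5% higher in NN, and 6.61% lower and 16.6% higher in TX. The group medians were -2.03 in NN and -1.44 in TX, and 81 genes were lower in both varieties, as were 4.79% of all rows. For 123 genes in NN and 121 in TX both 10 d libraries lay below both 24 h libraries, as they did for 31.3% and 24.2% of all rows. Relative depth was 0.458 and 0.780 in the NN libraries at 10 d and 0.727 and 0.763 at 24 h, and 0.959 and 0.803 at 10 d and 0.777 and 0.554 at 24 h in TX. In NN the deeper 10 d library had the lower share, and in TX the deeper one had the higher share. An effect of depth was not tested.

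**Figure D2:**
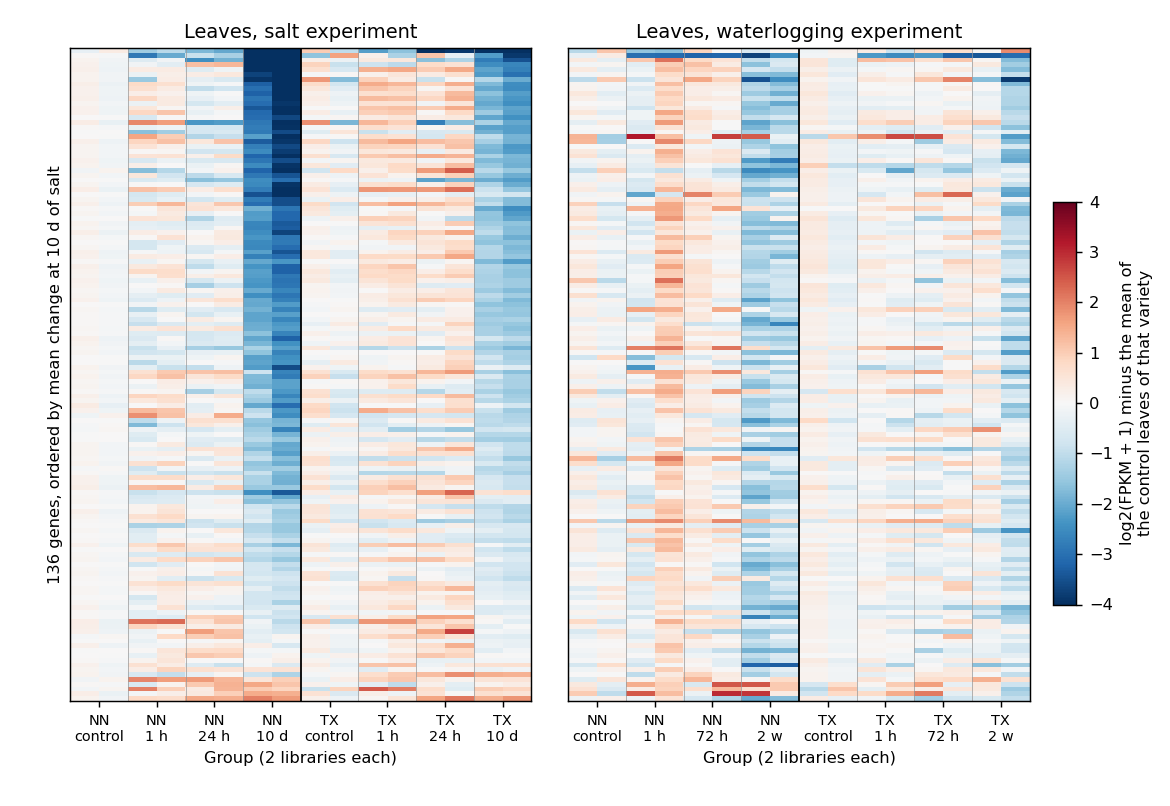
Change of each of the 136 genes (rows, ordered by mean change at 10 d of salt) in each leaf library (columns, 2 per group), as log2(FPKM + 1) minus the mean of the control leaves of that variety, with colours limited at -4 and 4. The NN libraries at 10 d of salt are blue for most genes (median change -2.10), those of TX less deeply so (-1.18), and under waterlogging the NN libraries at 2 w are blue for most genes (-1.06).

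What was left of each transcript varied widely. As a percentage of the control mean, the median gene kept 23.2% at 10 d in NN, with quartiles of 12.6% and 47.6%, and 41.7% in TX, with quartiles of 32.5% and 63.9%. The other abundant leaf genes kept a median of 110% and 96.8%. Under 10% of control remained for 25 genes in NN and 2 in TX. In NN 35 genes and in TX 17 had fallen below 20 FPKM in both 10 d libraries. None of the changes took the group to the level of roots, since 134 or more of its genes still read 1 FPKM or above in every 10 d leaf library. The more abundant genes of the group fell further. The 68 with the higher control levels changed by a median of -2.62 in NN and -1.36 in TX on the log2 scale, and the other 68 had -1.70 and -0.96, though rank and change share the control libraries.

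The 10 most abundant genes were all called lower at 10 d in NN, by -1.69 to -6.25 on the log2 scale, and 7 of them were in TX. The gene of rank 1, on chromosome 6H, read 1168 and 1032 FPKM in NN control leaves, 1022 and 1408 at 1 h, 1163 and 1256 at 24 h, and 269 and 178 at 10 d. In TX it read 1063 and 856 FPKM in control leaves, 955 and 1181 at 1 h, 1145 and 1348 at 24 h, and 350 and 289 at 10 d. Its levels held through 24 h and then fell with no overlap with any earlier library. The log2 changes at 10 d were -2.32 (SE 0.282, adjusted p = 8.7e-05) in NN and -1.58 (SE 0.282, adjusted p = 0.00228) in TX. The rank 3 gene was highest at 1 h. It read 1440 and 1087 FPKM in NN control leaves, 1651 and 1845 at 1 h, 625 and 893 at 24 h, and 243 and 133 at 10 d. At 10 d its log2 change was -2.79 (SE 0.345, adjusted p = 9.63e-05) in NN and -1.35 (SE 0.345, adjusted p = 0.0141) in TX.

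HORVU6Hr1G057240, on chromosome 6H, had the deepest fall shared by the varieties. In NN leaves it read 77.2 and 121 FPKM in control, 35.8 and 45.5 at 1 h, 27.3 and 22.5 at 24 h, and 0.491 and 0.358 at 10 d. In TX leaves it read 286 and 69.6 FPKM in control, 29.8 and 45.0 at 1 h, 7.70 and 8.81 at 24 h, and 2.23 and 2.87 at 10 d. Each step lay below the one before it in both varieties with no overlap of libraries, and it was one of the 5 genes in NN and 7 in TX already called lower at 24 h. Its log2 change at 10 d was -6.10 (SE 0.497, adjusted p = 6.69e-06) in NN and -5.33 (SE 0.497, adjusted p = 4.56e-05) in TX, and at 24 h it was -1.92 (adjusted p = 0.0356) and -3.94 (adjusted p = 0.000454). Under waterlogging the same gene was not called. There it read 29.0 and 141 FPKM in NN control leaves and 42.1 and 69.0 at 2 w, and 44.3 and 57.5 in TX control leaves and 53.1 and 191 at 2 w, with groups that overlapped.

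HORVU7Hr1G076030, on chromosome 7H, was the 1 member called higher at 10 d of salt in both varieties. In NN leaves it read 34.5 and 28.2 FPKM in control, 54.6 and 51.8 at 1 h, 91.7 and 87.8 at 24 h, and 129 and 105 at 10 d. In TX leaves it read 42.9 and 32.0 FPKM in control, 39.5 and 53.2 at 1 h, 113 and 163 at 24 h, and 102 and 129 at 10 d. All libraries of 24 h and 10 d lay above all controls. The log2 change at 10 d was 1.87 (SE 0.238, adjusted p = 0.000118) in NN and 1.60 (SE 0.238, adjusted p = 0.000828) in TX. The course under waterlogging was a different one, from 83.9 and 109 FPKM in NN control leaves to 22.9 and 28.0 at 2 w, and from 160 and 99.7 in TX control leaves to 82.3 and 64.5 at 2 w. Neither change was called (log2 -1.88, adjusted p = 0.0573 in NN, and -0.78, adjusted p = 0.553 in TX).

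The other genes that were called higher at 10 d were so in 1 variety each. That of rank 19 read 471 and 331 FPKM in NN control leaves and 1105 and 1052 at 10 d, and that of rank 88 read 64.9 and 61.0 in control and 187 and 137 at 10 d. In TX the rank 71 gene read 49.0 and 55.5 FPKM in control leaves and 146 and 139 at 10 d, while in NN it was called lower. In all, 72 genes were lower in both varieties, as were 5.49% of all rows. A further 32 were lower in NN and not called in TX, 1 was lower in TX and not called in NN, and 27 were called in neither. Of the 136 genes, 125 had values below control in both varieties. Across the genes the NN and TX changes at 10 d had a Pearson r of 0.82 (n = 136 genes, which are not independent replicates, with all changes set against controls grown together).

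**Figure D3:**
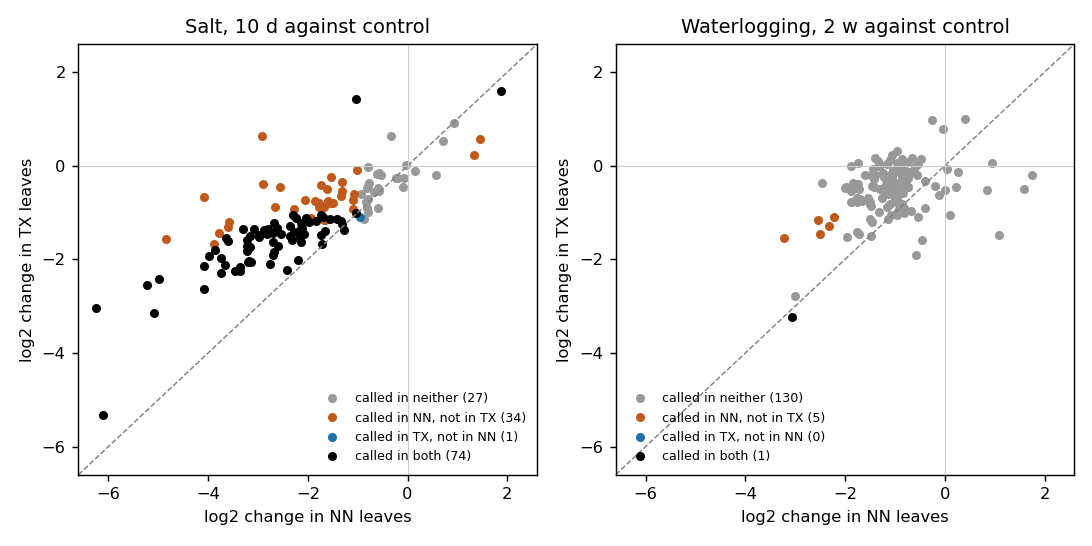
Log2 change against control in NN (horizontal) and TX (vertical) leaves for the 136 genes at 10 d of salt (left) and 2 w of waterlogging (right); the dashed line marks equal change. In the salt plot 119 genes lie above the dashed line and 72 are called lower in both varieties, and in the waterlogging plot 6 are called in NN and 1 in TX.

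The varieties were compared by the difference between their responses. At 10 d of salt 119 of the 136 genes had a response that was higher in TX than in NN, with a median difference of 0.84 on the log2 scale against -0.14 over all rows. The difference passed the test for 5 genes, all higher in TX, or 3.68% of the group, where 0.92% of all rows were called higher and 1.13% lower. The count was 26 without replicate 1 of NN at 10 d, 16 and 15 without either TX control, and 2 to 3 without either NN control, replicate 2 of NN at 10 d or replicate 1 of TX at 10 d. Of the 5, the rank 108 gene had the largest difference. It read 104 and 98.9 FPKM in NN control leaves and 17.8 and 8.85 at 10 d, but 35.7 and 22.8 in TX control leaves and 42.6 and 46.7 at 10 d. NN started above TX and ended below it, a difference in response of 3.54 on the log2 scale (SE 0.447, adjusted p = 0.00344).

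The rank 58 gene read 301 and 288 FPKM in NN control leaves and 25.1 and 10.7 at 10 d, and 208 and 156 in TX control leaves and 118 and 107 at 10 d (difference 3.41, SE 0.434, adjusted p = 0.00345). For the gene of rank 84 the NN leaves went from 76.9 and 59.6 FPKM to 1.05 and 0.645, and the TX leaves from 172 and 48.7 to 15.6 and 14.3 (difference 2.69, SE 0.600, adjusted p = 0.0473). Calls in opposite directions fell on the rank 71 gene, from 249 and 209 FPKM to 127 and 95.8 in NN and from 49.0 and 55.5 to 146 and 139 in TX (difference 2.47, SE 0.357, adjusted p = 0.00735). Here too the TX controls were the lower ones. The fifth gene, of rank 68, fell in both varieties, from 179 and 139 FPKM to 14.2 and 8.30 in NN and from 83.9 and 84.7 to 23.2 and 18.6 in TX (difference 1.77, SE 0.382, adjusted p = 0.0419). At 24 h the difference passed for 2 genes, both higher in TX, where 0.809% of all rows were called higher and 2.69% lower. At 1 h limma called 0 genes, with 13 at an unadjusted p under 0.05, where 0.202% of all rows were called higher and 0.096% lower.

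Levels rather than responses were also set side by side. In salt control leaves, which helped to choose the genes, TX lay below NN for 107 of the 136, with a median difference of -0.39 on the log2 scale, given as a description. In waterlogging control leaves, which also helped to choose them, TX lay above NN for 101, with a median of 0.22. The order of the varieties in control thus differed between the experiments. At 10 d of salt, which did not choose the genes, 9 were higher in TX and none lower, against 2.56% and 2.12% of all rows, with a median of 0.55. The median was 0.19 without replicate 2 of NN at 10 d and 0.87 without replicate 1. The count was 2 without replicate 2 of NN at 10 d, 24 without replicate 1 of NN, 3 without replicate 1 of TX and 6 without replicate 2 of TX. The clearest was the gene of rank 58 given above (log2 2.70, SE 0.307, adjusted p = 0.000333).

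Early in salt stress, at 1 h and 24 h, 3.68% and 8.09% of the group were called in NN, and 8.09% and 16.2% in TX. The called genes of the group in TX were mostly higher, while those among all rows in TX were mostly lower. In NN 2 genes of the group were higher and 3 lower at 1 h, and 6 higher and 5 lower at 24 h. Over all rows in NN, 1.22% and 3.40% were higher and lower at 1 h, and 2.61% and 3.74% at 24 h. The group's median changes in NN were 0.04 and -0.06, and 118 and 117 of its genes stayed within 1 on the log2 scale of control. The NN count at 1 h was 1 without the library in doubt, and also without either control. Leaving out single libraries gave 3 to 5 at 24 h, with 3 without replicate 1 of either group, 4 without replicate 2 of the control and 5 without replicate 2 of 24 h. In TX 9 were higher and 2 lower at 1 h, and 15 higher and 7 lower at 24 h, while 2.98% and 8.34% of all rows were higher and lower at 1 h and 4.79% and 12.5% at 24 h. The group medians in TX were 0.38 and 0.34, against -0.27 and -0.35 for all rows and -0.43 and -0.37 for the other abundant leaf genes.

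The TX values at these times depended on the scaling and on single libraries. Median-ratio scaling, which divides each library by its median ratio to the others, moved the all-row median by 0.27 at 1 h and 0.34 at 24 h, and then 34 genes were higher and none lower at 1 h, and 47 higher and 2 lower at 24 h. The TX controls were the least alike pair among the salt leaves, with a Pearson r of 0.813 across the 136 genes against 0.933 to 0.992 for the other pairs. Without replicate 1 of the control 25 were called at 1 h, and without replicate 1 or 2 of 1 h none and 1 were. At 24 h, 14 were called without replicate 2 of 24 h. Both TX libraries at 1 h lay above both controls for 70 genes, against 14.2% of all rows, and both at 24 h did for 55, against 13.8%.

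HORVU0Hr1G020590, whose identifier gives no chromosome, was called higher early in NN. It read 25.3 and 31.6 FPKM in NN control leaves, 113 and 91.3 at 1 h, 94.1 and 73.0 at 24 h, and 39.6 and 56.2 at 10 d. In TX leaves it read 36.2 and 52.3 FPKM in control, 81.1 and 92.4 at 1 h, 59.5 and 48.0 at 24 h, and 62.1 and 64.7 at 10 d. All 1 h libraries lay above all controls, and by 24 h the TX values overlapped their controls. The log2 change in NN was 1.81 at 1 h (SE 0.242, adjusted p = 0.00411) and 1.52 at 24 h (SE 0.242, adjusted p = 0.00345). In TX it was 0.98 at 1 h (SE 0.242, adjusted p = 0.0159), within the limit of 1, and 0.29 at 24 h (adjusted p = 0.371). The difference between the varieties was not past the threshold at 24 h (log2 -1.23, SE 0.342, adjusted p = 0.0662).

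Under waterlogging the group moved less than under salt, with the most calls in NN at 2 w. The TX median at 2 w was -0.45, and ran from -0.98 to -0.02 with 1 library left out. The test of the difference in response between the varieties called 0 genes there, so no difference between varieties is claimed. At 2 w in NN 6 genes were lower and none higher, 4.41% of the group against 0.365% of all rows lower and 0.290% higher. The median change was -1.06, against 0.12 over all 21378 rows tested and -0.09 over the other abundant leaf genes. In both 2 w libraries 108 genes lay below both controls, as did 15.7% of all rows. The count was 0 without replicate 2 of the NN control, with 52 genes at an unadjusted p under 0.05 and a median of -1.22. It was 2 without replicate 2 of 2 w, which had 36.1% of its FPKM in ENSRNA rows and a relative depth of 0.201, and 0 without all the libraries in doubt, with 38 at an unadjusted p under 0.05. The median was -1.24 in both of these, which set the same 2 w library against the same controls and so give a single estimate. With 1 library left out in turn, the median ran from -1.24 to -0.95, while the calls did not hold.

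From 72 h to 2 w, 19 genes were lower in NN and none higher, or 14.0% of the group against 2.23% of all rows lower and 4.30% higher. Neither of these groups chose the genes, though the control libraries entered the estimate of spread. The group median was -1.28 and the all-row median 0.18. For 123 genes both 2 w libraries lay below both 72 h libraries, as for 16.8% of all rows. Both NN libraries of 72 h had over 10% of FPKM in ENSRNA rows, so no value without libraries in doubt can be had. Leaving out a single library gave 1 without replicate 1 of 72 h, 2 without replicate 2 of 72 h, 4 without replicate 1 of 2 w and 5 without replicate 2 of 2 w.

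The 6 genes of NN at 2 w included 5 beyond the one described next. That of rank 102 read 77.2 and 128 FPKM in NN control leaves and 16.6 and 15.9 at 2 w (log2 -2.55, SE 0.283, adjusted p = 0.0129). That of rank 128 read 23.8 and 65.9 in control and 3.505 and 3.16 at 2 w (log2 -3.23, SE 0.476, adjusted p = 0.0219). The other 3, of ranks 56, 114 and 126, changed by -2.33, -2.22 and -2.51 (adjusted p 0.0195 to 0.0402). In all 5 the control and 2 w libraries did not overlap.

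HORVU2Hr1G038940, on chromosome 2H and second in abundance, was the 1 gene of the group called at every time of waterlogging in both varieties. In NN leaves it read 472 and 760 FPKM in control, 73.9 and 70.7 at 1 h, 64.02 and 65.04 at 72 h, and 45.0 and 109.6 at 2 w. In TX leaves it read 788 and 904 FPKM in control, 170 and 146 at 1 h, 169 and 87.7 at 72 h, and 79.6 and 99.8 at 2 w. All 12 waterlogged libraries lay below all 4 controls, and the fall was there at 1 h. The log2 changes were -3.03 (SE 0.442, adjusted p = 0.0185) at 1 h, -3.19 (adjusted p = 0.0088) at 72 h and -3.07 (adjusted p = 0.0195) at 2 w in NN. In TX they were -2.41 (adjusted p = 0.0388), -2.79 (adjusted p = 0.0133) and -3.23 (adjusted p = 0.0238). The call at 2 w was lost in TX without any 1 of the 4 libraries compared (adjusted p 0.0561 to 0.21, log2 -3.07 to -3.39) and in NN without replicate 2 of the control (adjusted p = 0.207, log2 -2.73).

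Salt gave the same gene a less even course. In NN leaves it read 1526 and 1425 FPKM in control, 201 and 362 at 1 h, 803 and 597 at 24 h, and 42.2 and 7.75 at 10 d. The TX controls lay far apart, at 141 and 1329.5 FPKM, with 500.5 and 180 at 1 h, 932 and 347 at 24 h, and 90.8 and 29.2 at 10 d. The 10 d libraries were the lowest in both varieties. At 10 d the log2 change was -6.25 (SE 1.04, adjusted p = 0.000659) in NN and -3.04 (SE 1.04, adjusted p = 0.0481) in TX. Without TX control replicate 2, the high one, the TX value was -1.43 (adjusted p = 0.304), and without replicate 1 it was -4.66 (adjusted p = 0.00779). The call was also lost without either TX library of 10 d, at -3.85 (adjusted p = 0.0677) and -2.24 (adjusted p = 0.265).

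**Figure D4:**
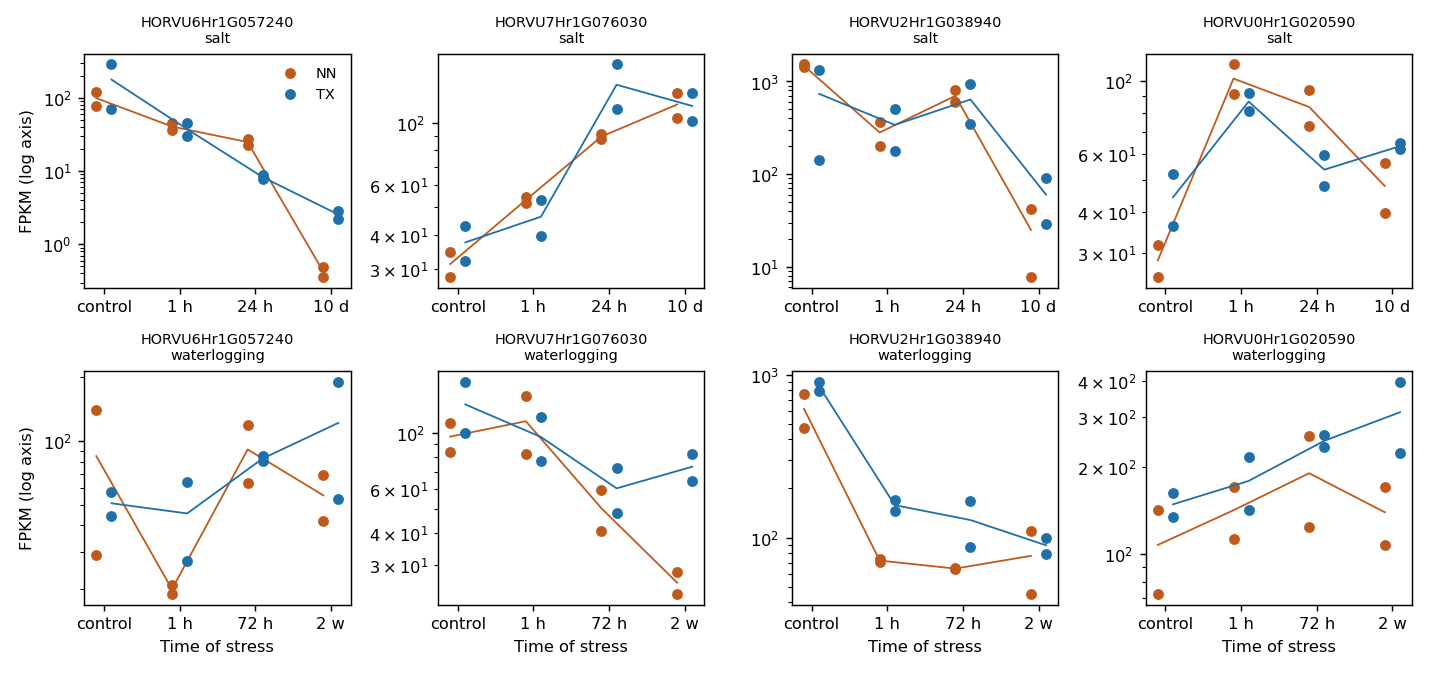
FPKM on a log axis of the 4 genes given by identifier, by time of salt (top) and waterlogging (bottom); points are single leaf libraries and lines join the means of 2, NN in orange and TX in blue, with a separate scale in each panel. HORVU6Hr1G057240 ends at 0.358 to 2.87 FPKM at 10 d of salt, HORVU7Hr1G076030 at 102 to 129, and HORVU2Hr1G038940 drops to 70.7 to 170 within 1 h of waterlogging.

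HORVU0Hr1G020590 rose most of the group at 2 w of waterlogging by the smaller of its changes in the varieties, in value alone, since it was called in neither. It read 72.4 and 143 FPKM in NN control leaves and 108 and 172 at 2 w, with overlap, and 163 and 135 in TX control leaves and 397 and 225 at 2 w, without overlap. The log2 changes were 0.41 (SE 0.487, adjusted p = 0.848) and 1.01 (SE 0.487, adjusted p = 0.549).

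In TX leaves 1 gene of the group was lower at 2 w and none higher, against 0.0655% and 0.126% of all rows. The median change was -0.45, and 113 of the 136 genes had values below control. Both 2 w libraries lay below both controls for 40 genes, and 20.6% of all rows did so. The 2 w libraries of TX differed from each other by a median of 0.97 on the log2 scale over the group, with replicate 2 the lower one. Without it the median was -0.02, and without replicate 1 it was -0.98, with no gene called in either fit. From 72 h to 2 w in TX 4 genes were lower, against 2.48% of all rows lower and 5.30% higher, with a median of -0.43. The median was -0.92 without replicate 1 of 2 w and turned to 0.04 without replicate 2. The count was 11 without replicate 1 of 2 w, 2 without replicate 1 of 72 h, and 0 without replicate 2 of 2 w or replicate 2 of 72 h.

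As a percentage of control, the median gene kept 46.6% at 2 w in NN (quartiles 34.8% and 55.3%) and 74.9% in TX (quartiles 60.0% and 93.6%), and the other abundant leaf genes kept 97.5% and 102%. The difference between the responses of the varieties was higher in TX for 113 genes, with a median of 0.62 against -0.09 over all rows, but 0 genes passed the limma test (13 at an unadjusted p under 0.05), as did 0% of all rows. The median was 0.17 without replicate 1 of TX at 2 w and 1.14 without replicate 2. Levels at 2 w were higher in TX for 4 genes and lower for none, against 0.758% and 0.734% of all rows, with a median of 0.86, which was 0.42 without replicate 1 of TX and 1.30 without replicate 2. Rank 108 was one of them, at 14.3 and 16.2 FPKM in NN and 58.5 and 55.0 in TX, and rank 59 was another, at 18.9 and 27.4 in NN and 236 and 129 in TX. Both were also called higher in TX at 10 d of salt, in other libraries of the same 2 varieties. The share of all rows called in both comparisons was not computed, so this overlap is a description. Without libraries in doubt 0 were called, with 13 at an unadjusted p under 0.05 and a median of 0.94. Single libraries left out gave 0 to 2, with 0 without replicate 1 of NN or replicate 1 of TX, 1 without replicate 2 of NN and 2 without replicate 2 of TX.

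Earlier waterlogging brought few calls, both in the group and over all rows. In NN 1 gene was lower and none higher at 1 h and at 72 h. Over all rows, 0.683% were lower and 0.0608% higher at 1 h, and 0.566% and 0.196% at 72 h. In TX 1 gene was lower at 1 h and 2 at 72 h, with none higher, against 0.641% of all rows lower and 0.0748% higher at 1 h, and 1.25% and 0.365% at 72 h. The NN medians were 0.29 and 0.23, against -0.11 and -0.08 over all rows and -0.19 and -0.25 over the other abundant leaf genes. Those of TX were 0.01 and -0.01, against 0.07 and 0.01 over all rows and -0.09 and -0.20 over the other abundant leaf genes. With 1 library left out, the NN median at 72 h ran from 0.04 (without replicate 1 of 72 h) to 0.33, and the TX medians from -0.28 to 0.23 at 1 h and from -0.29 to 0.21 at 72 h, lowest without replicate 2 of the control and highest without its replicate 1. The NN libraries at 1 h differed by a median of 1.11 on the log2 scale, replicate 2 being the higher, and the median was 0.85 without replicate 1 and -0.31 without replicate 2. HORVU2Hr1G038940 was the gene called at 1 h and 72 h in both varieties. The single calls at 1 h were lost without any 1 of the 4 libraries compared. At 72 h the NN call was lost without either 72 h library or replicate 2 of the control, and the TX count was 1 without replicate 1 of 72 h and 0 without the other 3 libraries in turn. Without libraries in doubt limma called 0 at 1 h in both varieties and at 72 h in TX, where 4 to 7 genes had an unadjusted p under 0.05. In all, 120 of the 136 genes were called in some salt contrast against control and 6 in some waterlogging contrast, as were 46.5% and 2.72% of all rows, and 16 were called in none.

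**Figure D5:**
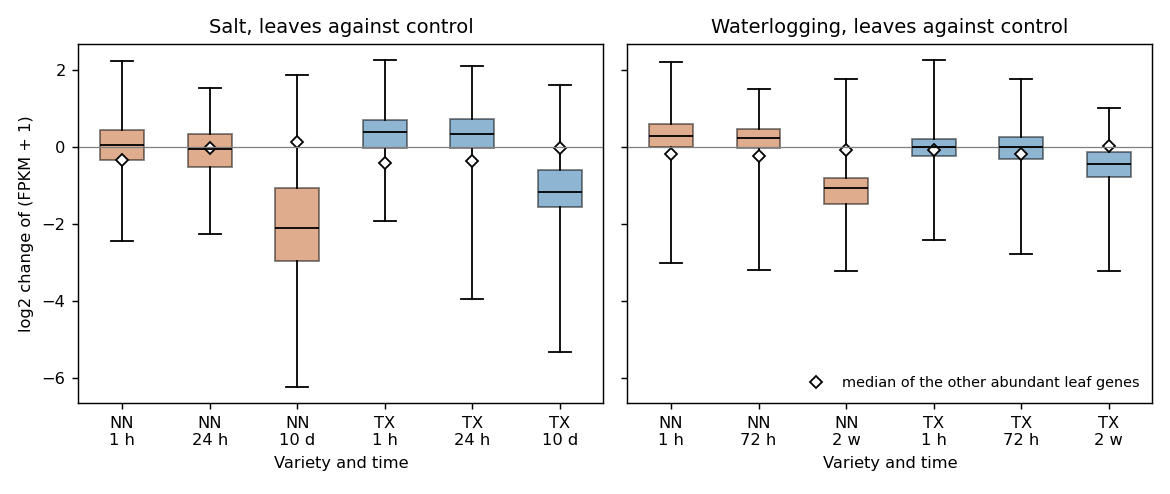
Log2 change against control of the 136 genes by variety and time, in salt (left) and waterlogging (right); boxes span the quartiles with the median as a line, whiskers reach the lowest and highest gene, and diamonds are the medians of the 1782 other abundant leaf genes. The boxes at 10 d of salt lie below 0 in both varieties (medians -2.10 and -1.18) while the diamonds lie at 0.12 and -0.02, and the NN box at 2 w of waterlogging has its median at -1.06.

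In size the late changes in the 2 experiments were only loosely alike from gene to gene. In NN 129 genes had values below control at 10 d of salt and 126 at 2 w of waterlogging, and in TX 127 and 113 did. Across the 136 genes these changes had a Pearson r of 0.32 in NN and 0.076 in TX, as a description over genes of separate experiments. The TX libraries at 2 w differed from each other by a median of 0.97 on the log2 scale. Among genes placed on a chromosome, the share of members lower at 10 d of salt in NN ran from 58.8% of 17 genes on 7H to 90.9% of 11 genes on 1H, and in TX from 35.3% on 7H to 68.8% of 16 genes on 3H. Over all rows of any chromosome, 12.5% were lower in NN and 7.83% in TX. In 4 of the 7 pairs with neighbouring identifiers both genes of a pair had the same call in both varieties, as lower or as not called. Shares of all rows by chromosome, and of like calls among other pairs of members, were not computed. These values are therefore a description and not a result about position.

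Roots stayed almost free of these transcripts under stress. In the 24 stressed root libraries 106 of the 136 genes never reached 1 FPKM, and the highest value of any was 5.76 FPKM. The genes at 1 FPKM or more were most numerous at 10 d of salt, with 11 and 8 in the NN libraries and 9 and 6 in TX, and at 72 h of waterlogging, with 5 and 6 in the NN libraries and 9 and 6 in those of TX. At the other times there were 0 to 6 per library. Genes read at 1 FPKM or more in all 4 roots numbered 2 at 10 d of salt and 5 at 72 h of waterlogging, and 1 of them, of rank 124, was in both. The rank 71 gene, which rose in TX leaves, read 1.68 to 5.12 FPKM in the 10 d salt roots and at most 0.730 FPKM in the salt control roots. The rule held the control roots under 1 FPKM, so no test is given for these values.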

How the data were processed

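Leaf and root RNA was enriched with oligo(dT) beads. The authors deposited FPKM, 1 table per experiment. Tools listed in the submitters' processing notes are featureCounts 1.5.0, HISAT and HISAT2, while build and annotation were not given in the sources used here. Because FPKM carry no totals, depth is relative. Extra waterlogging sheets, with 82 columns of values, were left out.

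Libraries were grouped by the sample labels, 2 per group. limma 3.58.1 (R 4.3.3; trended empirical Bayes) was fitted to log2(FPKM + 1) of the 16 leaf libraries of each experiment, over 8 group means, for rows at 0.5 FPKM or more in at least 2 libraries. All 136 genes passed this filter in both fits. Fold changes on this scale understate changes of low genes. P-values were adjusted by Benjamini-Hochberg over all rows of a contrast, and calls needed an adjusted p under 0.05 together with a change of over 1 on the log2 scale. Tests stayed within an experiment. The fit was tested on simulated data. The genes, the lists and the tests were chosen with earlier results of these data known.

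Genes were ordered by the smaller of their NN and TX changes. The first in each direction is named at 10 d of salt, among those called in both varieties, and at 2 w of waterlogging, called or not. Genes given by rank were chosen after their values were seen. Alternatives were a pseudocount of 0.1, no filter, median-ratio scaling, equal HORVU totals (also without the HORVU row with the highest FPKM, added after seeing the data), the replicate number as a block, genes chosen in the other experiment, and leaving out libraries. Tables and plots were made with matplotlib 3.10.9, numpy 2.4.6 and pandas 2.3.3 in Python 3.11.15.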

Additional observations from a re-analysis of the deposited data

Results flagged for a closer look

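The response to salt differed between TX and NN by a test of the difference itself (limma, adjusted p under 0.05 and a difference beyond 1 on the log2 scale) for 2 genes of the group at 24 h and for 5 at 10 d, all higher in TX. The pair at 24 h were the genes of ranks 108 and 71, which were also among the 5 at 10 d. At 24 h the gene of rank 108 read 57.0 and 54.2 FPKM in NN leaves and 90.2 and 148 in TX leaves, a difference in response of 2.84 (SE 0.447, adjusted p = 0.0274). That of rank 71 read 182 and 241 FPKM in NN and 124 and 190 in TX (difference 1.66, SE 0.357, adjusted p = 0.0394). Among all rows 0.809% were called higher and 2.69% lower in that comparison. For both genes the TX controls were below the NN controls in salt. The count at 24 h was 0 without either library of NN at 24 h, without either NN control or without replicate 2 of TX at 24 h, where the unadjusted p was under 0.05 for 6 to 20 genes. It was 1 without replicate 1 of the TX controls and 9 without replicate 2, of which 5 were higher and 4 lower in TX.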

How the results depend on the processing

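The late salt counts within a variety, against control and against 24 h, moved by no more than 1.5 times under another pseudocount, no filter, the scalings and the block. Every late median stayed negative against control. Leaving out 1 library gave 95 to 110 called genes in NN at 10 d and 44 to 90 in TX, and 94 to 106 and 72 to 83 from 24 h to 10 d. At 1 h it gave 1 to 5 in NN and 0 to 25 for TX, and at 24 h 3 to 5 and 14 to 31. It gave 2 to 26 for the response difference at 10 d and 0 to 9 at 24 h, and 2 to 24 for TX against NN at 10 d. Under waterlogging it gave 0 in both varieties at 1 h, 0 to 1 in both at 72 h, 0 to 6 in NN and 0 in TX at 2 w, 1 to 5 in NN and 0 to 11 in TX from 72 h to 2 w, and 0 to 2 for TX against NN at 2 w. Where these limma counts were 0, 1 to 52 genes had an unadjusted p under 0.05. The causes were not tested.

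Median-ratio scaling gave 34 and 49 called genes in TX at 1 h and 24 h of salt, 8 for the response difference at 10 d, 0 in NN and in TX at 1 h of waterlogging, 1 in TX at 72 h, 9 in NN from 72 h to 2 w and 1 for TX against NN at 2 w. Without the filter 3 were called in NN and 5 in TX at 1 h of salt and 0 in TX at 1 h of waterlogging. A pseudocount of 0.1 gave 0 in TX at 2 w. Equal HORVU totals without the highest HORVU row, chosen after seeing the data, gave 0 in TX at 1 h of waterlogging and 1 for TX against NN at 2 w. Without libraries in doubt 1 was called in NN at 1 h of salt, and 0 under waterlogging in NN at 1 h and 2 w, for TX at all 3 times and from 72 h to 2 w, and for TX against NN at 2 w. The NN contrasts with 72 h gave no value there.

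Replicate numbers were not taken as pairs in the main fit. Correlations of the replicate differences were over 0.1 for 4 of 28 pairs of groups in salt and 11 of 28 in waterlogging. They ran from -0.31 to 0.26 in salt and more widely, from -0.68 to 0.64, in waterlogging. With the replicate block 12 were called in NN from 72 h to 2 w, 0 in TX at 1 h and 1 in TX at 72 h of waterlogging, 1 for TX against NN at 2 w and 1 for the response difference at 24 h of salt, and the other counts stayed within 1.5 times. Genes chosen in the other experiment (200, of which 199 passed in salt) gave 15 (NN) and 37 (TX) at 1 h of salt, 35 (NN) and 59 (TX) at 24 h, 125 in TX from 24 h to 10 d, 9 and 5 for the response difference at 10 d and 24 h, 15 for TX against NN at 10 d, 2 in each variety at 1 h of waterlogging and 9 in TX from 72 h to 2 w. Uncalled values of NN at 2 w changed sign for HORVU0Hr1G020590 without a control (-0.068 to 0.90), and for HORVU6Hr1G057240 without a control (-1.37 to 0.87) or without replicate 1 of 2 w (0.10). The shallowest leaf library, replicate 2 of NN at 2 w of waterlogging, had a relative depth of 0.201.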
